A study of Mus musculus with 6 samples.

Results

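Heterozygous MPP3 cells and heterozygous CMP cells of mouse bone marrow were compared, a step from multipotent progenitors towards committed myeloid progenitors. The comparison rests on 6 of the series' 36 libraries, 3 per population, chosen by the table that holds them. All 6 libraries carried the genotype Mof -/+, that is, 1 copy of Mof (gene symbol Kat8), a lysine acetyltransferase that acts on histone H4. The mutation is therefore shared by both sides of the comparison and is not what it tests. CEL-Seq2, which reads messenger RNA from its 3' end, was used on sorts of 15 cells. MPP3 (multipotent progenitor 3) was gated as LSK+CD34+Flt3-CD48+CD150-, where LSK stands for lineage-negative cells with Sca-1 and cKit. CMP (common myeloid progenitor) was gated as lineage-negative cells without Sca-1 and IL7r, with cKit and CD34, and with low CD16/32. Wild-type MPP3 and CMP, with 3 libraries each, and the heterozygous HSC (stem cell), MPP2, MPP4 and MEP (megakaryocyte-erythroid progenitor) libraries, with 3 each, are given beside the results. The sources used here do not give the age, sex or strain of the mice, nor say that the 3 libraries of a population are from different mice. The p-values therefore cover only library-to-library spread, part or all of which may be technical.

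MPP3 cells are multipotent progenitors with a bias towards myeloid output, and CMP cells lie further along, at the branch between granulocyte-monocyte and megakaryocyte-erythroid fates. Early myeloid progenitors begin to make the enzymes of the primary (azurophil) granules, such as myeloperoxidase and the neutrophil serine proteases. Stem and multipotent cells express regulators such as Hlf and Erg. The immediate early genes encode transcription factors and feedback regulators that cells induce within minutes of a stimulus without new protein synthesis, and dissociation and sorting of tissue are also known to induce them.

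The heterozygous MPP3 libraries held 58757, 79936 and 71576 gene counts and the CMP libraries 61631, 89116 and 123765. The difference in depth did not pass an exact two-sided permutation test (p = 0.4, where 3 against 3 libraries cannot go below 0.1). Genes detected ranged from 8229 to 8818 in MPP3 and from 8214 to 9359 in CMP (exact permutation p = 0.5). The ratio of gene counts to counts of added spike-in RNA was 34.5, 29.0 and 16.1 in MPP3 and 31.0, 33.6 and 40.9 in CMP (exact permutation p = 0.3). Levels are given below as CPM, a gene's counts per 1000000 gene counts of its library, and 1 count was worth 8.08 to 17.0 CPM. Every MPP3 library came from the sequencing pool of the MPP populations and every CMP library from the pool of CMP and MEP, so pool and population cannot be told apart. MPP3 library 1 stood apart from libraries 2 and 3 in 2 marker sums: mature B cell genes reached 2127 CPM, against 238 and 587, and mitosis genes 4119 CPM, against 1877 and 1649. Library numbers follow the order of the table columns and pair no libraries.

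The 3 markers of the 2 populations lay on the labelled sides. Mpo, the myeloperoxidase of primary granules, stood at 528, 225 and 210 CPM in the MPP3 libraries and at 2109, 1582 and 3434 CPM in the CMP libraries. Its log2 difference, CMP minus MPP3, was 2.89 (SE 0.268, limma adjusted p = 2.61e-09). Ctsg, the granule protease cathepsin G, was at 51.1, 0 and 0 CPM in MPP3 and at 584, 314 and 873 CPM in CMP (log2 difference 4.64, SE 0.489, limma adjusted p = 3.44e-08). For both genes every CMP library lay above every MPP3 library. Ly6a, the gene of the Sca-1 protein on which the gates differ, was at 51.1, 25.0 and 41.9 CPM in MPP3 and at 0, 0 and 8.08 CPM in CMP. The groups did not overlap, but with 8 counts against 1 the difference did not pass the test (log2 difference -1.73, SE 0.636, limma adjusted p = 0.182). Kat8 itself gave 2 counts over the MPP3 libraries and 3 over the CMP libraries, too few to test, and these counts cannot check the genotype.

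Over all genes, 8145 had a mean scaled count of at least 1 and were tested with limma on log2(scaled count + 1). At a false discovery rate of 0.05, 67 genes (0.823% of those tested) were higher in CMP and 116 (1.42%) were higher in MPP3, 183 (2.25%) in all. The median difference of all tested genes was 0.045. Among the called genes the log2 difference ran from -5.66 to 4.64, and in 180 of the 183 the 2 groups of libraries did not overlap. Of all tested genes 9.87% had every CMP library above and 9.42% every MPP3 library above. The calls came from the same libraries, so this separation adds no support to them. DESeq2 called 84 genes, and the same contrast with the spread estimated over all 18 heterozygous or all 36 libraries called 25 and 20. Without CMP library 1, CMP library 3 or MPP3 library 3 the test called 108, 103 and 114 genes. With libraries scaled to their spike-in counts the median of all genes moved to 0.396, and 73 genes were higher in CMP and 51 in MPP3. With 15 cells per library, fewer cells of a type and less RNA per cell cannot be told apart in any of these values.

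**Figure D1:**
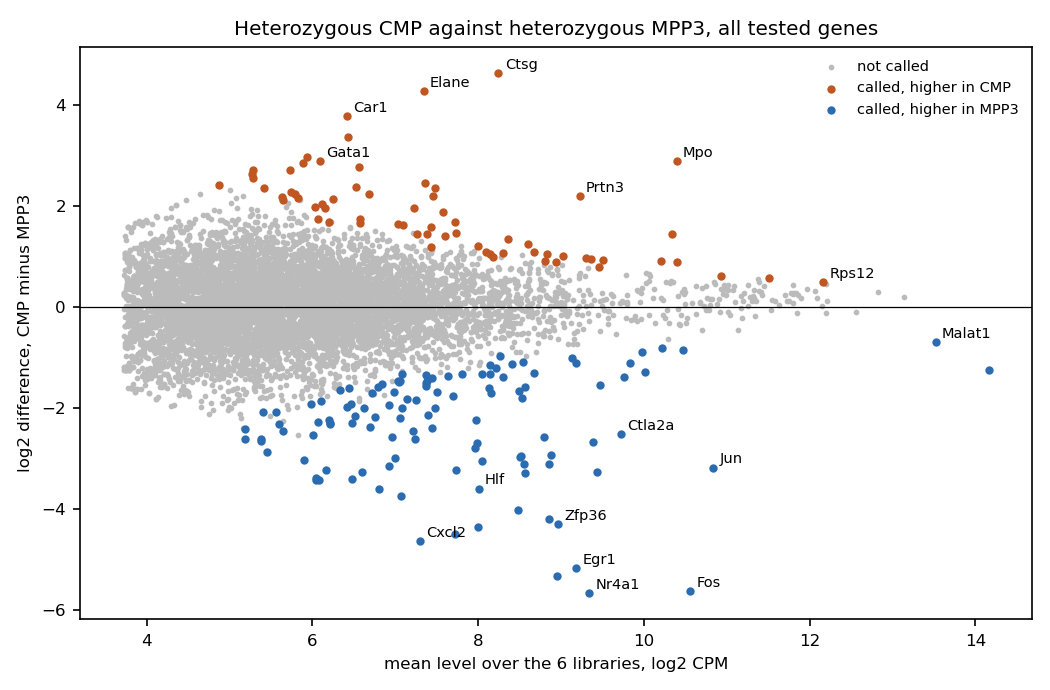
Each point is 1 of 8145 tested genes, with the mean level over the 6 heterozygous libraries in log2 CPM on the x axis and the log2 difference, CMP minus MPP3, on the y axis. Called genes are coloured: 67 lay above 0, led by Ctsg (4.64) and Elane, and 116 lay below 0, led by Nr4a1 (-5.66) and Fos (-5.62).

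The immediate early genes had the largest median difference of the 28 gene lists. Of 22 listed genes 21 could be tested, with Egr2 at 0 counts in all 6 libraries, and all 21 were higher in MPP3, against 1.42% of all tested genes. Their median log2 difference was -3.11, against 0.045 over all genes. Summed over the list, the MPP3 libraries held 17632, 19941 and 18610 CPM and the CMP libraries 1817, 2368 and 1915 CPM, a ratio of means of 9.21. Each of the 21 had every MPP3 library above every CMP library, as 9.42% of all tested genes did; 9.87% had the CMP libraries above. The test called 19 to 21 members in each fit that left out 1 library, 19 with spike-in scaling, 10 with the spread taken from all 18 heterozygous libraries and 9 with all 36.

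Within this list the orphan nuclear receptor gene Nr4a1 had the largest difference. It stood at 851, 1551 and 1453 CPM in MPP3 and at 16.2, 11.2 and 8.08 CPM in CMP. That is 278 counts against 3, a ratio of pooled CPM of 121 with an exact 95% interval for counting error of 41.0 to 590.2. Its log2 difference was -5.66 (SE 0.336, limma adjusted p = 1.22e-13). Fos, a subunit of the transcription factor AP-1, was at 3217, 3540 and 2082 CPM in MPP3 and at 0, 101 and 121 CPM in CMP (log2 difference -5.62, SE 0.458, limma adjusted p = 2.21e-10). All 3 MPP3 libraries were high and CMP library 1 held no count. Jun, the partner of Fos in AP-1, stood at 3251, 3453 and 3185 CPM in MPP3 and at 373, 426 and 275 CPM in CMP (log2 difference -3.18, SE 0.191, limma adjusted p = 1.22e-13). This standard error was the smallest of the list.

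The other AP-1 genes followed the same direction. Fosb was at 426, 300.2 and 517 CPM in MPP3 and at 0, 0 and 24.2 CPM in CMP (log2 difference -4.48). Junb had a mean of 683 ± 45.1 CPM (SD, n = 3) in MPP3 and 70.4 ± 26.4 CPM in CMP, and Jund 1158 ± 177 and 175.5 ± 58.9 CPM. The zinc finger regulator Egr1 stood at 766, 1276 and 1369 CPM in MPP3 and at 16.2, 0 and 64.6 CPM in CMP (log2 difference -5.16, SE 0.418, limma adjusted p = 2.21e-10). Atf3, a stress-induced bZIP factor, was found in all MPP3 libraries (51.1, 100.1 and 112 CPM) and in no CMP library. Its call was lost without MPP3 library 3.

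Genes whose products restrain signalling or shorten the life of messenger RNA were part of the same group. Zfp36 encodes tristetraprolin, which binds AU-rich messenger RNA and speeds its decay. It stood at 970, 988 and 922 CPM in MPP3 and at 16.2, 78.5 and 32.3 CPM in CMP (log2 difference -4.29, SE 0.339, limma adjusted p = 1.63e-10). Its relatives Zfp36l1 and Zfp36l2 differed less, by -1.46 and -0.89, and kept their calls in fewer fits: Zfp36l1 lost its call without CMP library 1, CMP library 3, MPP3 library 2 or MPP3 library 3, and Zfp36l2 without CMP library 3 or MPP3 library 2. The MAP kinase phosphatase genes Dusp1 and Dusp2 had means of 477 ± 89.7 and 653 ± 360.1 CPM in MPP3 and 52.1 ± 31.2 and 74.6 ± 53.4 CPM in CMP. Nfkbia, the inhibitor of NF-kappaB, was at 460, 901 and 1174 CPM in MPP3 and at 48.7, 101 and 154 CPM in CMP (log2 difference -2.92). Klf2, Klf4 and Klf6, factors of the Krüppel-like family, differed by -3.75, -3.03 and -4.02. The remaining listed members, Ier2, Ier3, Ier5 and Btg2, differed by -3.11, -3.28, -2.56 and -2.79.

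**Figure D2:**
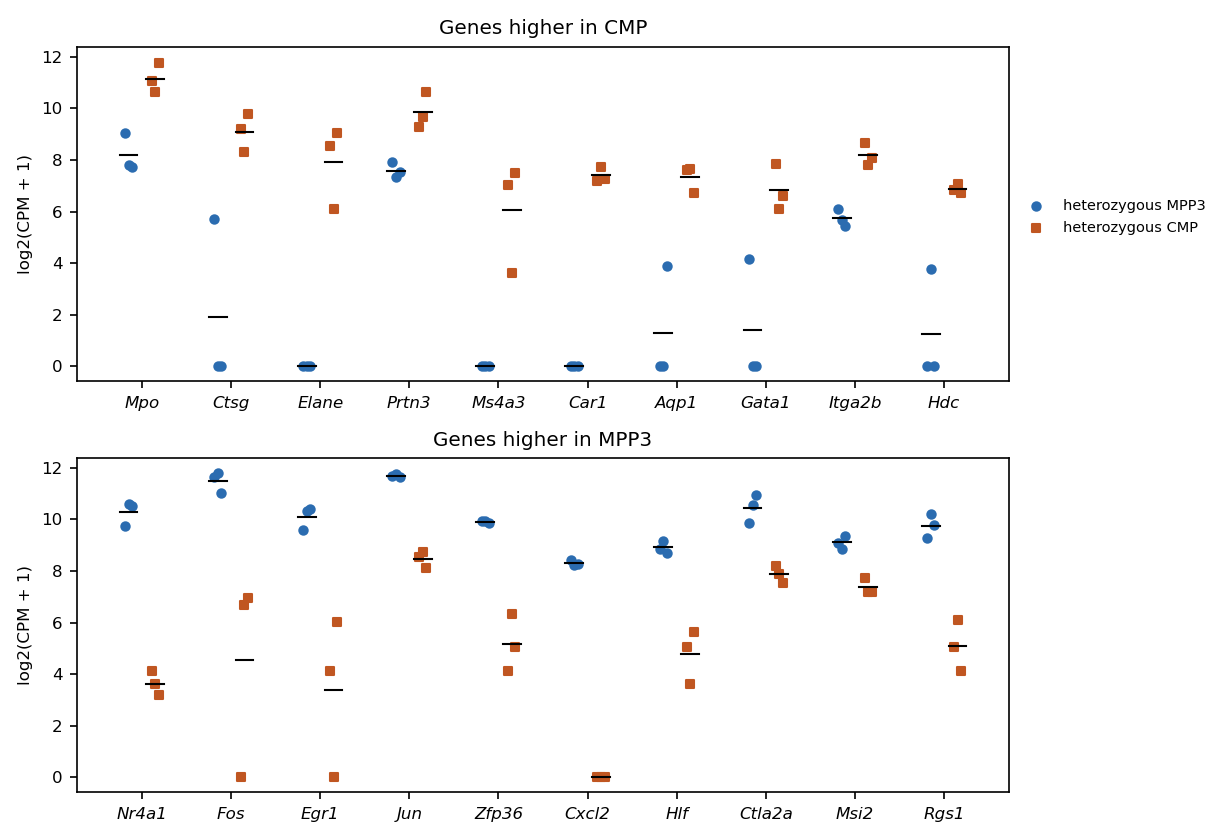
Levels of 20 genes in each heterozygous library as log2(CPM + 1), with circles for MPP3, squares for CMP and a bar at the mean of 3 libraries. In the upper panel Elane, Ms4a3 and Car1 are at 0 in every MPP3 library. In the lower panel Cxcl2 is at 0 in every CMP library. All 20 genes were chosen from those called, and their groups do not overlap.

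Some called genes outside that list, picked after their values were seen or as the largest differences, encode chemokines or regulators of signalling and were higher in MPP3. Cxcl2, a chemokine that attracts neutrophils, was at 340, 300.2 and 307 CPM in MPP3 and had no count in CMP. Its 66 counts against a floor of 3 counts over the group make it at least 28.7-fold higher in MPP3 (limma adjusted p = 2.16e-08). The chemokine gene Ccl4 stood at 425.5, 600.5 and 475 CPM in MPP3 and at 16.2, 11.2 and 8.08 CPM in CMP (log2 difference -4.36). Rgs1 and Rgs2, regulators that switch off G protein signals, had means of 890 ± 282 and 1261 ± 183 CPM in MPP3 and 38.6 ± 26.1 and 127 ± 58.0 CPM in CMP. Nfkbiz, an inducible co-regulator of NF-kappaB, had 47 counts in MPP3 and 2 in CMP (log2 difference -3.60, SE 0.517, limma adjusted p = 1.69e-05). Socs3, a feedback inhibitor of cytokine receptors, had 30 counts against 1. Nr4a2, a relative of Nr4a1, had 41 counts against 2, the small Maf factor gene Maff 16 against 0, and Ppp1r15a, which directs dephosphorylation of eIF2alpha in stressed cells, 93 against 16. Maff lost its call without CMP library 2 or 3 or MPP3 library 2 or 3.

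Cdkn1a, Pim1 and Mcl1 were also higher in MPP3. Cdkn1a, which encodes the Cdk inhibitor p21, stood at 221, 488 and 447 CPM in MPP3 and at 0, 67.3 and 48.5 CPM in CMP (log2 difference -3.23, SE 0.481, limma adjusted p = 3.33e-05). It was the only called member of 13 tested G1 cyclins and Cdk inhibitors, against 1.42% of all tested genes called higher in MPP3. The median of that list was 0.14. Pim1, a survival kinase, and Mcl1, an anti-apoptotic protein on which stem cells depend, had means of 1066 ± 140 and 578 ± 122 CPM in MPP3. In CMP they stood at 357 ± 36.2 and 161 ± 57.2 CPM. Both calls were lost with spike-in scaling.

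Among the other heterozygous populations, the summed level of the immediate early list was 5301, 5707 and 18541 CPM in HSC, whose library 2 held only 1577 gene counts. It was 3850 to 8419 CPM in MPP2 and 2386 to 3930 CPM in MPP4, which shared the pool of MPP3, and 1880 to 2382 CPM in MEP, which shared the pool of CMP. The MPP3 libraries lay above every MPP2, MPP4 and MEP library and overlapped with HSC library 3. Cxcl2 had no count in MPP2 or MEP and at most 19.3 CPM in any HSC or MPP4 library. These populations were not part of the test.

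**Figure D3:**
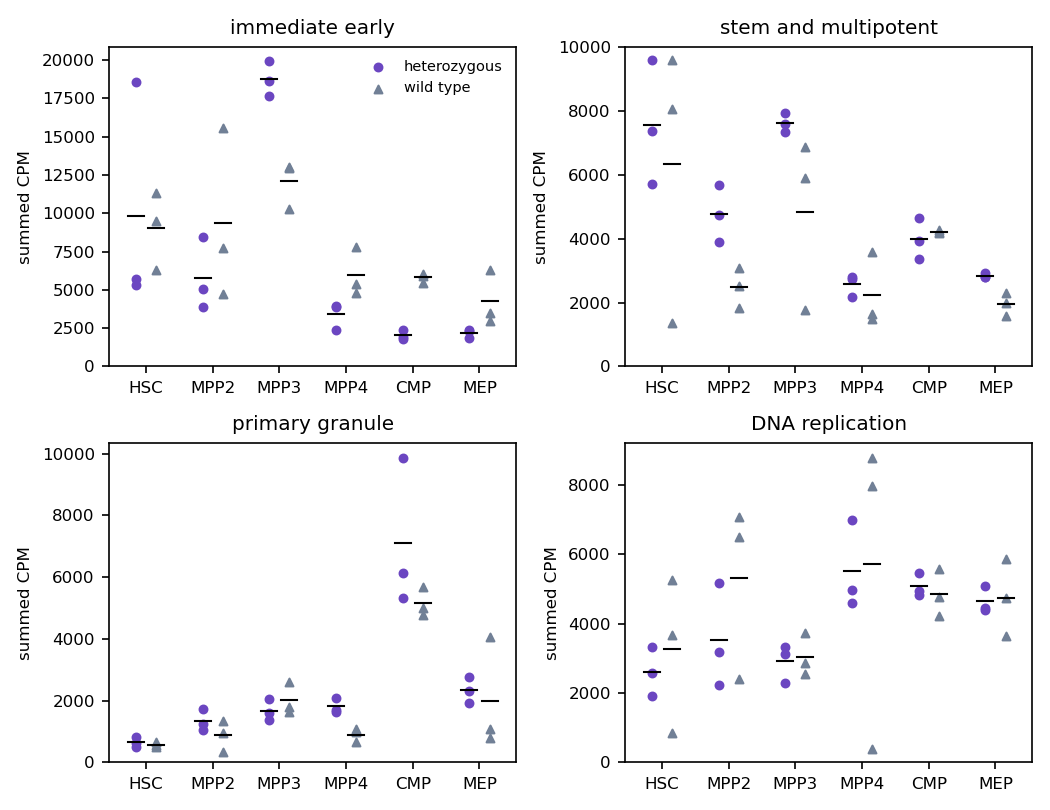
Summed CPM of 4 gene lists in every library of the series by population, with circles for heterozygous and triangles for wild-type libraries and bars at the means. The immediate early sum is 17632 to 19941 CPM in heterozygous MPP3 and 1817 to 2368 CPM in heterozygous CMP, and the primary granule sum is highest in CMP in both genotypes.

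Promoter sequences were searched because the immediate early genes moved together, and 7 motifs were chosen after that was seen. RefSeq (GRCm38.p6, the assembly that mm10 names) gave windows of 250 bases before to 50 after the start for 89 of the 116 genes higher in MPP3, 50 of the 67 higher in CMP and 6222 tested genes. The cAMP response element TGACGTCA, searched on both strands, was in the windows of 11 of the 89 genes (12.4%), of 1 of the 50 (2.0%) and of 3.86% of the tested genes. In the same order, the AP-1 site TGANTCA was in 7.87%, 10% and 5.45% of genes, the GATA site AGATAA in 14.6%, 10% and 7.70%, and the TATA box TATAAA in 22.5%, 14% and 8.18%. The C/EBP site TTGCNNAA was in 7.87%, 12% and 9.84%. Of the 18 called immediate early genes with a window, 4 held the TATA box, 2 the cAMP response element and 1 each of the other 5 motifs. Of the 7 called primary granule genes, 3 held the C/EBP site, 1 the AP-1 site, 1 the TATA box and none the other 4. An NF-kappaB site, searched as a fixed pattern of letters, was in 3 of the 89 genes, in none of the 50 and in 0.546% of tested genes. A CArG box, the site of serum response factor, was in 1 of the 89 genes, Zfp36, and in 1.4% of tested genes. Every motif was read on both strands. A match is a string of letters and does not show that a factor bound there.

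The 150 bases before the start are shown for 8 called genes whose window holds a match, as the letters behind those counts. They are written 5' to 3' on the gene's strand, with the match in capitals. The first 4 carry the cAMP response element, at 9, 29, 143 and 12 bases before the start, then Zfp36 the CArG box (58 bases before), Cxcl2 the NF-kappaB site (97 bases before) and Plac8 and Clec12a the C/EBP site (12 and 140 bases before).
Hlf, chr11:90390918-90391067, minus strand: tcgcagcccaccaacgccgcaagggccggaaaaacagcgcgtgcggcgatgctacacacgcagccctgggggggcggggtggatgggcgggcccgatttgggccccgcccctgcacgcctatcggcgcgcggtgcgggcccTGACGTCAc
Maff, chr15:79347370-79347519, plus strand: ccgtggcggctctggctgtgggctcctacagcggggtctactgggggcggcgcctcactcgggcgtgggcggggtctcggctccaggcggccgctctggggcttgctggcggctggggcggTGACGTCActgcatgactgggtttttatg
Dusp1, chr17:26508473-26508622, minus strand: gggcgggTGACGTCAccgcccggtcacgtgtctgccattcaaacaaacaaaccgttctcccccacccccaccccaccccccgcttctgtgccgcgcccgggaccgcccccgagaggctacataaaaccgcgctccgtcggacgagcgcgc
Ppp1r15a, chr7:45526269-45526418, minus strand: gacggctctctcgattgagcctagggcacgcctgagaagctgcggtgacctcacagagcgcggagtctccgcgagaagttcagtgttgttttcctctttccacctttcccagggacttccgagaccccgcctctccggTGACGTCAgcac
Zfp36, chr7:28379229-28379378, minus strand: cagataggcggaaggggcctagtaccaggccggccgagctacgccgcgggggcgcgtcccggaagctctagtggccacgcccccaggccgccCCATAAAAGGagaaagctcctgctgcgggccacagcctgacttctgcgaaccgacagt
Cxcl2, chr5:90903749-90903898, plus strand: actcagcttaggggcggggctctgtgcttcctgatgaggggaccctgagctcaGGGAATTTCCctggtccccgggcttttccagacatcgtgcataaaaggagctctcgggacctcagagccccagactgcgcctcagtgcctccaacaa
Plac8, chr5:100563097-100563246, minus strand: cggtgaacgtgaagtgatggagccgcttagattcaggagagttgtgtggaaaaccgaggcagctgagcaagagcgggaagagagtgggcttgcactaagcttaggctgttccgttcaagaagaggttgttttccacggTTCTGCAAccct
Clec12a, chr6:129350094-129350243, plus strand: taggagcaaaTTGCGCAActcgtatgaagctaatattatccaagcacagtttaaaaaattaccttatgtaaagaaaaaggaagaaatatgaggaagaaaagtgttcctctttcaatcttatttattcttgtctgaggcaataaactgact

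Of 29 listed stem and multipotent genes 22 were tested: 5 were higher in MPP3, against 1.42% of all tested genes, 1 was higher in CMP and 16 did not pass the test. The median of the list was -0.70, against 0.045 over all genes. Hlf, a bZIP factor that marks stem cells, stood at 460, 576 and 419 CPM in MPP3 and at 32.5, 11.2 and 48.5 CPM in CMP (log2 difference -3.59, SE 0.375, limma adjusted p = 3.00e-08). In heterozygous HSC, Hlf stood at 578 and 699 CPM in libraries 1 and 3, above every MPP3 library, and had no count in library 2, which held only 1577 gene counts. Its means were 75.2 CPM in MPP2 and 11.2 CPM in MPP4, with every library of both below every MPP3 library.

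Ctla2a, which encodes an inhibitor of cathepsin proteases, was at 919, 1489 and 1956 CPM in MPP3 and at 292, 236 and 186 CPM in CMP (log2 difference -2.50, SE 0.249, limma adjusted p = 1.20e-08). The RNA-binding stem cell regulator Msi2 had means of 555 ± 97.3 and 167 ± 37.7 CPM, and the transcription factor Sox4 1247 ± 261 and 578 ± 180 CPM. Erg, an ETS factor required by stem cells, had 22 counts in MPP3 and 5 in CMP (log2 difference -1.91, limma adjusted p = 0.0315), and its call was lost in all 6 fits that left out a library. The calls of Msi2, Sox4 and Erg were lost with spike-in scaling, and none of the 5 was called with the spread of all 18 or 36 libraries. Mycn, a Myc family factor, was the member higher in CMP, with 2 counts in MPP3 and 22 in CMP, and lost its call without any 1 CMP library and without MPP3 library 2 or 3. Outside the list and picked after their values were seen, Nkx2-3 (39 counts against 1), Hes1 (29 against 0) and Myct1 (57 against 9) were higher in MPP3. The calls of Hes1 and Myct1 were lost with the spread of all 18 or 36 libraries.

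**Figure D4:**
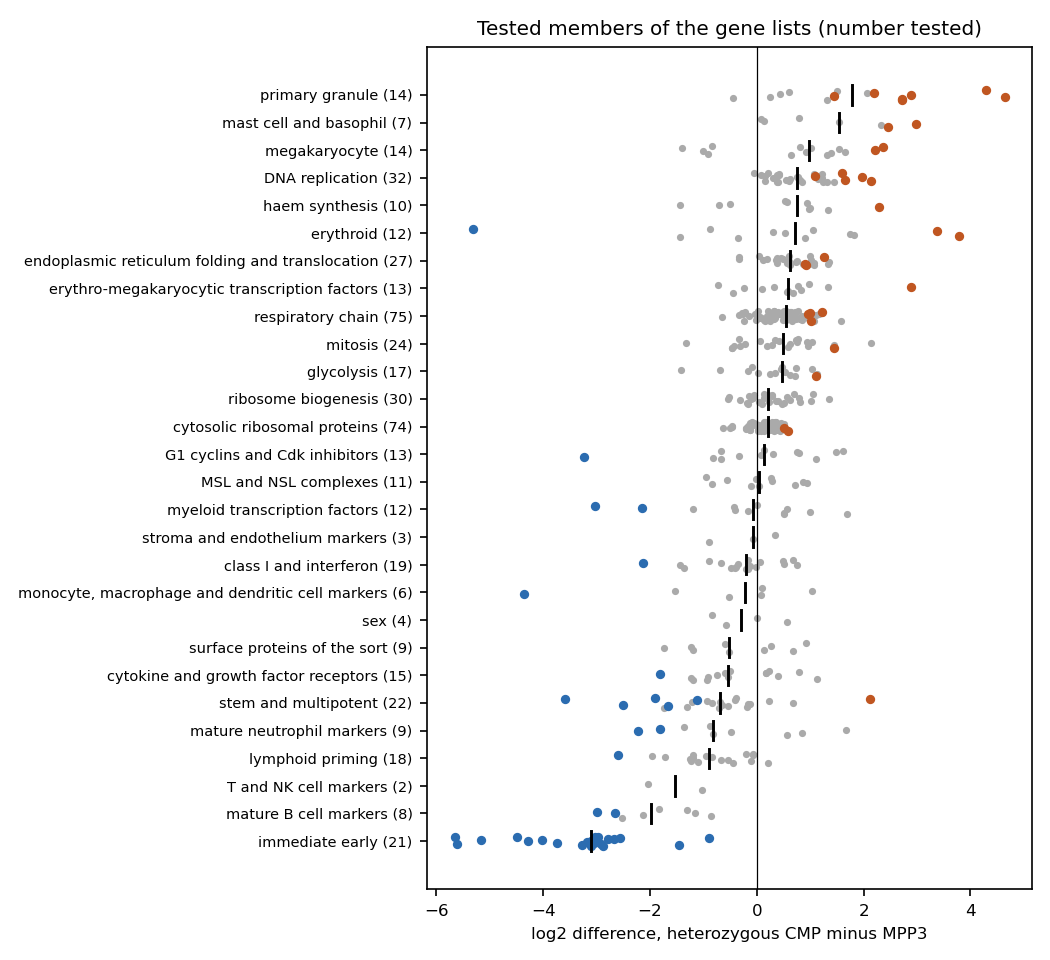
Log2 differences, CMP minus MPP3, of every tested member of 28 gene lists, ordered by median, with the number tested in brackets and a bar at each median. Grey points did not pass the test, orange points were higher in CMP and blue points higher in MPP3; the medians run from -3.11 (immediate early) to 1.78 (primary granule).

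Of 15 listed genes of primary granules 14 were tested, 7 were higher in CMP, against 0.823% of all tested genes, and none was higher in MPP3. The median was 1.78, and 13 of the 14 were positive, against 52.9% of all tested genes. In 7 the CMP libraries lay above all MPP3 libraries, as in 9.87% of all tested genes. The summed level was 2042, 1601 and 1383 CPM in the MPP3 libraries and 6133, 5319 and 9865 CPM in the CMP libraries, a ratio of means of 4.24. All CMP libraries lay above all MPP3 libraries, and CMP library 3 was the highest. Between 5 and 7 members were called in each fit that left out 1 library, and 2 with the spread taken from all 18 heterozygous or all 36 libraries.

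Elane, the neutrophil elastase gene, had no count in any MPP3 library and stood at 373, 67.3 and 533 CPM in CMP. Its 95 counts against a floor of 3 counts over the MPP3 group make it at least 24.3-fold higher in CMP (limma adjusted p = 6.99e-06). Prtn3, the gene of proteinase 3, lies beside Elane on chromosome 10 and was already present in MPP3, at 238, 163 and 182 CPM, with 617, 808 and 1584 CPM in CMP (log2 difference 2.19, SE 0.279, limma adjusted p = 1.80e-06). Plac8, expressed in early myeloid cells, was at 834, 738 and 503.0 CPM in MPP3 and at 1493, 1852 and 2351 CPM in CMP (log2 difference 1.45). Ms4a3, a membrane protein gene used to mark granulocyte-monocyte progenitors, had 0 counts against 31. Clec12a, a myeloid lectin receptor gene, had 0 against 22. The call of Ms4a3 was lost without CMP library 1 or 3 or MPP3 library 2 or 3, and that of Clec12a without CMP library 2 or 3.

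Some genes of the megakaryocyte, erythroid and mast cell branches passed the test higher in CMP. Gata1, the transcription factor that drives erythroid and megakaryocyte fate, stood at 17.0, 0 and 0 CPM in MPP3 and at 227, 67.3 and 97.0 CPM in CMP (log2 difference 2.89, SE 0.585, limma adjusted p = 0.00265). It was the only called member of 13 tested transcription factors of these branches, against 0.823% of all tested genes called higher in CMP. The median of these factors was 0.59, and the call of Gata1 was lost without CMP library 1. The related Gata2 was at 494, 263 and 224 CPM in MPP3 and at 665, 471 and 549 CPM in CMP (log2 difference 0.83, limma adjusted p = 0.112).

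Among 12 tested erythroid genes 2 were higher in CMP and 1 in MPP3, against 0.823% and 1.42% of all tested genes. The median was 0.72. Car1, the gene of carbonic anhydrase 1, had no count in MPP3 and 146, 213 and 153 CPM in CMP, at least 12-fold higher by the same floor (limma adjusted p = 1.53e-05). Aqp1, a water channel of red cells, was at 0, 0 and 13.97 CPM in MPP3 and at 195, 202 and 105 CPM in CMP (log2 difference 3.38, SE 0.539, limma adjusted p = 1.15e-04). In heterozygous MEP, which shared the pool of CMP, Car1 had a mean of 2067 CPM, and in MPP2, which shared the pool of MPP3, 381 CPM. Mfsd2b, which encodes the exporter of sphingosine 1-phosphate in red cells and platelets, had 3 counts in MPP3 and 44 in CMP (log2 difference 2.78). The call of Mfsd2b was lost without CMP library 1. Of 10 genes of haem synthesis 1 was called higher in CMP, against 0.823% of all tested genes, with a list median of 0.75. This was Alas1, the first enzyme of the pathway (2 counts against 27, log2 difference 2.28). Its call was lost without CMP library 1 or 3 or MPP3 library 3.

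Of 14 tested megakaryocyte genes 2 were higher in CMP, against 0.823% of all tested genes, with a median of 0.97. Itga2b, the integrin of platelets known as CD41, stood at 68.1, 50.04 and 41.9 CPM in MPP3 and at 406, 224 and 267 CPM in CMP (log2 difference 2.21, SE 0.362, limma adjusted p = 1.64e-04). The platelet chemokine gene Pf4 was uneven in CMP, at 714, 224 and 40.4 CPM, and overlapped with the 34.0, 12.5 and 41.9 CPM of MPP3. Its call was lost without CMP library 1 or 2 or MPP3 library 2 or 3. Sdpr, a caveolar coat gene, had 0 counts in MPP3 and 26 in CMP, 227, 112 and 16.2 CPM by library, and lost its call without CMP library 1 or 2.

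Of 7 tested mast cell and basophil genes 2 were higher in CMP, against 0.823% of all tested genes. All 7 were positive, against 52.9% of all tested genes, with a median of 1.54. Hdc, the histidine decarboxylase that makes histamine, was at 0, 12.5 and 0 CPM in MPP3 and at 114, 135 and 105 CPM in CMP (log2 difference 2.98, SE 0.56, limma adjusted p = 0.00108). Cpa3, a mast cell carboxypeptidase, was at 119, 62.5 and 0 CPM in MPP3 and at 292, 281 and 234 CPM in CMP (log2 difference 2.46), and lost its call without CMP library 1. The mast cell and basophil genes Cma1, Tpsb2, Prss34 and Cd200r3 had no count in any of the 6 libraries.

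Of 32 tested DNA replication genes 5 were higher in CMP, against 0.823% of all tested genes, and none in MPP3. The median was 0.76, and 31 of the 32 were positive, against 52.9% of all tested genes. The summed level was 3336, 2302 and 3116 CPM in MPP3 and 5468, 4937 and 4816 CPM in CMP, with no overlap. Dut, which removes dUTP, had means of 80.3 ± 15.5 CPM in MPP3 and 266 ± 16.4 CPM in CMP (log2 difference 1.59, SE 0.333, limma adjusted p = 0.00393). Prim1, a primase subunit, and Rrm1, a subunit of ribonucleotide reductase, differed by 2.15 and 1.66. Mcm6, part of the replicative helicase, and Fen1, a flap endonuclease, differed by 1.08 and 1.96. The count of called members was 2, 2 and 1 without CMP library 1, 2 or 3 and 2 without MPP3 library 2, and DESeq2 called none.

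Of 24 tested mitosis genes 1 was higher in CMP, against 0.823% of all tested genes. This was the Cdk subunit gene Cks2 (log2 difference 1.44, limma adjusted p = 0.027). The median of the list was 0.49, with 17 positive and 7 negative, where 52.9% of all tested genes were positive. The summed level was 4119, 1877 and 1649 CPM in MPP3 and 3537, 2985 and 3337 CPM in CMP, so that MPP3 library 1 lay above every CMP library. Cenph, a kinetochore gene outside the list, had 0 counts in MPP3 and 21 in CMP. Both calls were lost without any 1 CMP library, and that of Cks2 also without MPP3 library 3.

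Of 75 tested respiratory chain genes 4 were higher in CMP (Atp5a1, Atp5b, Atp5g1 and Cox6c), against 0.823% of all tested genes, and none in MPP3. Of the 75, 66 were positive, against 52.9% of all tested genes, with a median of 0.54. The summed level was 10212, 10296 and 10045 CPM in MPP3 and 14279, 14891 and 15772 CPM in CMP. The MPP3 libraries lay within a narrow band below every CMP library. Atp5a1, the alpha subunit of ATP synthase, stood at 289, 400.3 and 335 CPM in MPP3 and at 682, 673 and 751 CPM in CMP (log2 difference 1.02, SE 0.23, limma adjusted p = 0.00848). Without CMP library 3 none of the 75 was called, and with DESeq2 none. Of 17 glycolysis genes 1, Pgam1, was higher in CMP (log2 difference 1.10, median of the list 0.47); leaving out any CMP library, or MPP3 library 2 or 3, ended its call.

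The endoplasmic reticulum genes, which fold and move secreted proteins, had 3 of 27 members called higher in CMP and 25 positive values, with a median of 0.63, read against the same 0.823% and 52.9% of all tested genes. Their sum was 4221, 4916 and 4024 CPM in MPP3 and 7204, 6396 and 7660 CPM in CMP. Calr, the chaperone calreticulin, stood at 834, 888 and 713 CPM in MPP3 and at 1785, 1234 and 1640 CPM in CMP (log2 difference 0.91, SE 0.19, limma adjusted p = 0.00355). Hsp90b1, the chaperone GRP94, and Sec61b, part of the translocation channel, differed by 0.90 and 1.25. Without CMP library 1 or 3 none of the 27 was called, and the calls of Calr and Hsp90b1 were also lost with spike-in scaling.

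Ribosomal genes differed little. Of 74 tested cytosolic ribosomal protein genes, with a median of 0.21, 2 were higher in CMP, against 0.823% of all tested genes. These were Rpl10 and Rps12, by 0.58 and 0.51. Both calls were lost under TMM scaling and without any 1 CMP library. None of 30 ribosome biogenesis genes passed the test (median 0.22), where 2.25% of all tested genes did. Npm1 and Ncl, the most abundant of the 30, differed by 0.51 and -0.14, the latter 0.32 with spike-in scaling. Eif5a, a translation factor, had means of 943 ± 67.5 CPM in MPP3 and 1767 ± 158 CPM in CMP (log2 difference 0.90, SE 0.175, limma adjusted p = 0.00177), a call lost with spike-in scaling. Got2, a mitochondrial aminotransferase gene, had means of 52.3 ± 3.12 and 248 ± 60.9 CPM (log2 difference 1.97).

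Transcription factors and receptors of the myeloid lineage showed no common direction. Of 12 tested myeloid transcription factors 6 were positive and 6 negative. The 2 called were both higher in MPP3, as 1.42% of all tested genes were. They were Cebpb (log2 difference -2.15) and Klf4, the latter also an immediate early gene. Cebpa, the factor that primes granulocyte fate, was at 17.0, 12.5 and 27.9 CPM in MPP3 and at 64.9, 135 and 80.8 CPM in CMP. Its groups did not overlap, and it did not pass the test (log2 difference 1.70, limma adjusted p = 0.0822). Among 15 cytokine and growth factor receptors 1 was called, the G-CSF receptor gene Csf3r, higher in MPP3 (228 ± 52.9 against 54.8 ± 10.8 CPM, log2 difference -1.82). The calls of Cebpb and Csf3r were lost with spike-in scaling.

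None of 9 tested genes on the list of surface proteins of the sort passed the test, where 2.25% of all tested genes did. Kit was at 528, 425 and 754 CPM in MPP3 and at 292, 449 and 364 CPM in CMP (log2 difference -0.59, limma adjusted p = 0.265). Ly6e, which is on the list though neither gate names it, differed by 0.68 (limma adjusted p = 0.055). It was called under 5 of 18 alternatives. Cd34, which both gates require, differed by -0.51, and by 0.05 without CMP library 1. Flt3, which the MPP3 gate excludes as a protein, had RNA in all 3 MPP3 libraries (119, 188 and 97.8 CPM), with 0, 157 and 88.9 CPM in CMP. Cd48, required in the MPP3 gate alone, differed by 0.27, and Fcgr3, one of the CD16/32 genes, by 0.92, with limma adjusted p-values of 0.801 and 0.517.

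Lymphoid priming genes were mostly lower in CMP by value, with 17 of 18 tested members negative and a median of -0.89. Over all tested genes 52.9% were positive, the median was 0.045, and 1.42% were called higher in MPP3. Of the 18, only Vpreb1, a surrogate light chain gene of B cell precursors, was called (16 counts against 0). Its call was lost without any 1 CMP library or without MPP3 library 1. Dntt, the terminal transferase of lymphoid precursors, was at 255, 175 and 55.9 CPM in MPP3 and at 0, 44.9 and 113 CPM in CMP (limma adjusted p = 0.135). Of 19 class I and interferon genes 1, Irf1, was called, higher in MPP3 (log2 difference -2.13), with a list median of -0.20; it lost its call without CMP library 1 or MPP3 library 2 or 3. Where 2.25% of all tested genes passed, none of 11 tested genes of the MSL and NSL complexes, in which Mof acts, did. The median of these 11 was 0.039. Their most abundant members Hcfc1 and Msl1 differed by -0.10 and 0.72, the former 0.33 with spike-in scaling. None of 4 tested sex-linked genes, all 4 on the Y chromosome, passed the test, with Eif2s3y at 0.01 and Ddx3y at -0.59. Ddx3y had means of 257 CPM in MPP3 and 166 CPM in CMP, and Eif2s3y 70.5 and 71.4 CPM. Both populations therefore held RNA of male cells.

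Some markers of cells outside the gates moved with the comparison, and their lists are given for that reason. The 13 listed mature B cell genes, of which 11 were in the tables, summed to 2127, 238 and 587 CPM in MPP3 and to 114, 44.9 and 48.5 CPM in CMP. Of 8 tested, Cd74 and Vpreb3 were called higher in MPP3, against 1.42% of all tested genes. All 8 were negative, where 52.9% of all tested genes were positive. The list is named for mature B cells, but neither called gene is particular to them. Vpreb1, a gene of B cell precursors, was also called higher in MPP3. Cd74, the invariant chain of MHC class II, was at 715, 25.0 and 27.9 CPM in MPP3 and had no count in CMP. Cd79a, a defining B cell receptor subunit, was at 170, 25.0 and 13.97 CPM in MPP3 and also had none. Neither Cd74 nor Vpreb3 was called without any 1 CMP library, and Vpreb3 was also lost without MPP3 library 1 or 3. Mature neutrophil genes summed to 2298, 2064 and 866 CPM in MPP3 and to 763, 628 and 784 CPM in CMP. Of 9 tested, S100a8 (834, 450.4 and 55.9 against 48.7, 101 and 24.2 CPM) and Csf3r were called higher in MPP3, against the same 1.42%. Csf3r is also on the list of cytokine receptors. Of the 9, 6 were negative and 3 positive, the latter Lcn2 (1.67), Ngp (0.85) and Camp (0.57), none of them called. S100a8 was not called without CMP library 1 or 3 or MPP3 library 1 or 2.

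Monocyte, macrophage and dendritic cell markers summed to 885, 863 and 601 CPM in MPP3 and to 16.2, 606 and 234 CPM in CMP. Ccl4 was the only called of 6 tested, higher in MPP3 as 1.42% of all tested genes were. Of the 6, 3 were negative and 3 positive, the latter F13a1 (1.03), Ccr2 (0.10) and Ly6c2 (0.083). Cd68, Itgax, Emr1 and Cd209a were at 0 in all 6 libraries. Of 14 T and NK cell markers 2 were tested and neither passed; Lck differed by -2.03 (limma adjusted p = 0.0875) and Cd8b1 by -1.02, while Cd3d, Cd3e and Cd3g were at 0. None of 3 tested stroma and endothelium markers passed, where 2.25% of all tested genes did. Pecam1 differed by -0.07 and Lepr by -0.89. The part of these cells in the immediate early, lymphoid and chemokine results was not tested. In the fit without MPP3 library 1, which held the most B cell RNA, 75 genes were higher in CMP and 97 in MPP3. All 21 immediate early genes were called in it. MPP3 libraries 2 and 3, kept in that fit, still held mature B cell genes (238 and 587 CPM) and mature neutrophil genes (2064 and 866 CPM). The fit therefore does not test the part of these cells.

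**Figure D5:**
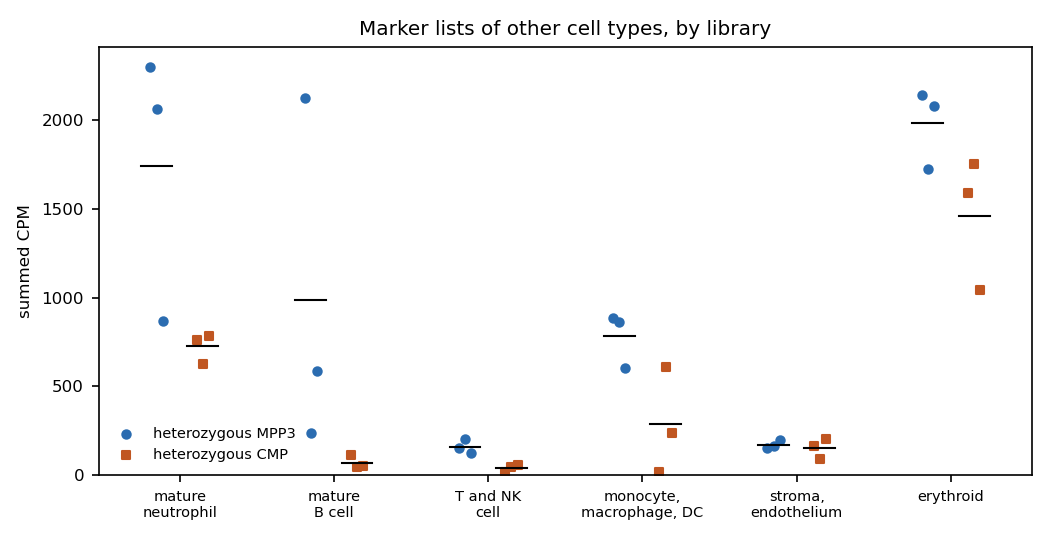
Summed CPM of 6 marker lists in each heterozygous MPP3 (circles) and CMP (squares) library, with a bar at the mean of 3. Mature B cell genes reach 2127 CPM in MPP3 library 1, against 114 CPM at most in CMP, and the stroma and endothelium sums overlap.

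Of the 12 tested erythroid genes 4 were negative, and of these only a globin transcript was called. Beta-s, which the erythroid list used here holds together with haemoglobin genes, was at 1055, 713 and 1146 CPM in MPP3. In CMP it was at 0, 67.3 and 0 CPM (log2 difference -5.32, SE 0.462, limma adjusted p = 6.22e-10). In the pool shared by MPP3 its level was 5159 to 7913 CPM in MPP2 and 897 to 100215 CPM in MPP4, and in the pool shared by CMP it was 0 to 308 CPM in MEP. The listed globin genes Hbb-b1, Hbb-b2 and Hba-a2 had no count in the 6 libraries. Whether RNA moved between libraries of a pool was not tested.

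RNA of the nucleus and of the ribosomal precursor also moved with population. Rn45s, the 45S ribosomal RNA precursor, stood at 30652, 37355 and 11400 CPM in MPP3 and at 13565, 8315 and 8742 CPM in CMP (log2 difference -1.24, limma adjusted p = 7.12e-04), and the groups overlapped. Its call was lost with spike-in scaling. The unnamed transcripts Gm17821 and A630089N07Rik were also higher in MPP3 (log2 differences -1.29 and -1.38) and lost their calls with spike-in scaling. Malat1, a long non-coding RNA kept in the nucleus, was at 14160, 14612 and 14418 CPM in MPP3 and at 12299, 8034 and 7102 CPM in CMP (log2 difference -0.70). Its call was lost without CMP library 2 or 3 and with spike-in scaling. With Rn45s left out of the library totals, 64 genes were higher in CMP and 120 in MPP3, and all 21 immediate early genes were called.

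The same step was examined in wild-type cells, whose libraries are separate from the heterozygous ones. None of 5661 tested genes passed limma's test (0.0%), with 718 at an unadjusted p under 0.05; edgeR called 6 and DESeq2 4. The wild-type MPP3 libraries were shallow, at 7304, 2764 and 20839 counts, against 55705 to 76418 in wild-type CMP, and the median difference of all genes was 0.479. Without wild-type MPP3 library 3, the deepest, the test called 1944 genes; without wild-type CMP library 1, 2 or 3 it called 2, 5 and 2.

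By mean CPM, the wild-type values mostly lay on the same side. Of the 67 genes higher in heterozygous CMP, 64 (95.5%) had the higher mean in wild-type CMP, where 64.6% of all tested genes with a count did. Of the 116 genes higher in heterozygous MPP3, 114 had a wild-type count and 88 of those (77.2%) had the higher mean in wild-type MPP3, against 35.4% of all. All 7 called primary granule genes and 18 of the 21 immediate early genes kept their side. The primary granule sum was 1643, 1809 and 2591 CPM in wild-type MPP3 and 4775, 5677 and 4986 CPM in wild-type CMP.

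The immediate early sum was 10268, 13025 and 12956 CPM in wild-type MPP3 and 5924, 5453 and 6033 CPM in wild-type CMP. The heterozygous MPP3 libraries lay above the wild-type MPP3 libraries on this sum, and the heterozygous CMP libraries below the wild-type CMP libraries. A test of the difference between the 2 steps in all 12 libraries, the interaction of genotype and population, called 7 of 7691 genes (0.091%), with 1075 at an unadjusted p under 0.05; none was on the immediate early list, of which all 21 members were tested. Jun came nearest among the immediate early genes named here, with an interaction of -2.53 (limma adjusted p = 0.0702). Rgs1 was among the 7, with an interaction of -6.49 (SE 1.117, limma adjusted p = 0.0384). In wild-type cells it stood at 0, 0 and 96.0 CPM in MPP3, on 2 counts in all, and at 144, 158 and 105 CPM in CMP.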

How the data were processed

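The signal values that the authors deposited are whole counts over a size factor for each library, as the values themselves show: dividing a column by its smallest positive value gave whole numbers (within 0.01) for 100.0% of values. Per the submitters' processing notes, BWA 0.6.2-r126 and the mm10 build were used; the sources used here do not name the gene annotation or say how molecular identifiers were handled. Recovered counts, without the 92 spike-in transcripts, were scaled to library totals (median 75756). The main test was limma 3.58.1 (R 4.3.3) on log2(scaled count + 1) with an intensity trend, over genes with a mean scaled count of at least 1, adjusted by Benjamini-Hochberg at 0.05. Such differences understate changes of low genes. edgeR 4.0.16 and DESeq2 1.42.0 on the recovered counts were alternatives. Intervals of 95% and floors of 3 counts over the group cover counting error only. Libraries of a group differed by more than counting noise (chi-square per degree of freedom 1.26 to 1.78) and were each counted as 1 sample; this does not show separate sorts or animals, since amplification also adds noise.

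Genes were named by a rule (the 12 largest differences per direction among called genes with groups apart, the markers, Kat8, and up to 4 called members per list with the smallest adjusted p, or the 2 most abundant members where none was called); 32 further called genes, and the promoter motifs, were chosen after their values were seen. The lists and the comparison were chosen with earlier results of these data known. Scripts were tested on simulated data.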

Additional observations from a re-analysis of the deposited data

Results flagged for a closer look

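The difference between the heterozygous and the wild-type step passed limma's test in 7 genes, each at an adjusted p of 0.0384 by limma. The interaction was -6.49 for Rgs1, -5.14 for Mir682, -5.04 for Gm9846, -4.75 for Gm6251, -4.65 for Vmp1, -4.60 for Gm15421 and 5.04 for Taf5. In 5 of them (Mir682, Gm9846, Gm6251, Vmp1 and Gm15421) the wild-type MPP3 libraries held no count, while wild-type CMP held 36 to 62 counts. Taf5 rested on 4 counts in wild-type MPP3 and 1 in wild-type CMP. No gene was called without any 1 wild-type CMP or any 1 heterozygous library, and 11, 28 and 1354 were called without wild-type MPP3 library 1, 2 or 3. The 20 alternatives in which Rgs1 was tested gave adjusted p-values from 1.44e-05 to 0.196. The median interaction of all tested genes was -0.77, and the depth of the wild-type MPP3 libraries moved with it; its part was not tested.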

How the results depend on the processing

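The 183 genes called between heterozygous MPP3 and CMP became 84 with DESeq2, 25 with all 18 heterozygous libraries in the fit and 20 with all 36, and all 25 and all 20 were among the 183. Without 1 library at a time the count ran from 103 to 172. edgeR called 193 of 1488 genes, and the other alternatives (pseudocount, filter, TMM, RLE and spike-in scaling, totals without Rn45s) gave 124 to 237. In the wild-type step, where limma called 0 genes, edgeR called 6, DESeq2 4, and the fits without 1 library 0 to 1944. For the interaction, with 7 calls, a pseudocount of 4 gave 1, no filter 0, TMM scaling 31, edgeR 29 and DESeq2 29; without 1 library at a time the count ran from 0 to 1354, and without wild-type MPP3 libraries 1 and 2, chosen after seeing the data, it was 228. The cause was not tested. Of 90 called genes named here, all 90 kept their direction under every alternative that tested them and 15 also their call; 68 lost it with all 18 libraries, 72 with all 36, 23 with spike-in scaling, 24 of the 81 tested by DESeq2 and 0 of the 64 tested by edgeR. Signs reversed only for uncalled genes: Eif2s3y -0.03 (RLE), -0.016 (DESeq2), -0.011 (totals without Rn45s) and -0.23 to 0.23 without 1 library at a time; Pecam1 0.32 (spike-in) and -0.22 to 0.11; Hcfc1 0.33 (spike-in) and -0.27 to 0.073; Ncl 0.32 (spike-in); Cd34 -0.92 to 0.049. No paired analysis was possible because the library numbers in the 2 groups do not match and only name libraries. Differences in genes near 1 count per library, Kat8 among them, were not detectable at this depth.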
